A study of Mus musculus with 6 samples.

Results

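Mouse bone marrow cells that carried an Evi1 vector were compared with cells that carried the GFP vector alone, both 4 weeks after transplantation. C57BL/6 is the strain given for every library. The mock group held 2 libraries from recipients of marrow transduced with GFP, and the preleukemia group held 2 libraries from recipients of marrow transduced with Evi1-GFP. Transduction, GFP, transplantation and the sort for GFP+ Lin- c-kit+ cells were thus common to both groups, and the construct was the labelled difference. Another 2 libraries, from Evi1-GFP marrow at 6 months (leukemia), entered only the estimate of the spread between libraries. A gene was taken where its deposited value reached 1 RPKM (reads per kilobase of transcript, scaled to the depth of the library) in at least 2 of the 4 libraries, which held for 10734 of 38924 rows of the table (27.6%). Of these, 9755 reached 1 RPKM in all 4 libraries, 409 in exactly 3 and 570 in exactly 2. Those 570 were 273 genes that entered through both preleukemia libraries, 191 through both mock libraries and 106 through 1 library of each group. Genes of the 273 could only lie higher in preleukemia, and those of the 191 only lower. Such genes are part of the list counts below. Ltf, Camp, Mmp9, Cfb, Fgr and Cdkn1c are examples of the first kind and Prss34 of the second. The mean RPKM of the 570 had a median of 1.14, against 0.726 for the 515 rows that reached 1 RPKM in a single library and were left out.

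Evi1, the product of the Mecom locus, is a zinc finger transcription factor that hematopoietic stem cells need for self-renewal. It binds DNA through separate groups of zinc fingers, recruits corepressors such as CtBP, and is expressed at high levels in a group of acute myeloid leukemias with a poor outcome. Neutrophils form from c-kit+ progenitors in steps: promyelocytes make the proteins of primary granules, later cells make those of secondary and tertiary granules, and factors of the C/EBP family direct these steps.

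Mecom itself checks the labels. It stood at 0.774 and 0.805 RPKM in mock libraries 1 and 2 and at 78.0 and 80.1 RPKM in preleukemia libraries 1 and 2. The 2 groups did not overlap, and the rise on the scale of log2(RPKM + 1), used for every fold change here, was 5.48 (SE 0.11, limma adjusted p = 6.08e-06). Transcripts of the vector and of the chromosomal gene (GRCm38 chromosome 3, 29951296 to 30548008, minus strand, protein coding) are counted together in these values. Kit, the receptor used in the sort, was at 69.2 and 57.7 RPKM in mock and at 60.0 and 56.9 in preleukemia, and did not pass the test. The T and NK cell markers Cd3e, Cd4, Cd8a, Cd5 and Klrb1c did not reach the level needed for testing. Of the 7 measured surface markers of the sort and of mature lineages 1 rose, 2 fell (0 without either preleukemia library) and 4 did not pass. The one that rose was Itgam, which encodes CD11b of myeloid cells, from 4.66 and 4.77 RPKM to 37.1 and 53.2 RPKM (2.99, limma adjusted p = 0.000932). Implied totals of the 4 libraries lay between 16906219 and 21625897 reads, so that on a gene of 1 kb a count of 3 reads gives 0.139 to 0.177 RPKM, a limit that covers counting error alone. The mock libraries lay further apart than the preleukemia libraries, with a median absolute log2 difference of 0.217 against 0.111, and 249 against 62 genes differed by at least 1. Since no label ties the libraries of a group to separate animals, the p-values describe the spread between these libraries only.

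Evi1 cells differed from GFP cells in 2141 of the 10734 genes (19.9%) at a limma adjusted p under 0.05. Of these, 1475 rose (13.7% of all genes tested) and 666 fell (6.2%), and the median log2 fold change over all genes was 0.05. These shares are the reference for the counts of each gene list below. A change of at least 1 on the log2 scale was seen in 462 genes that rose (4.3%) and 238 that fell (2.22%). The largest changes were increases: 33 genes rose by at least 3 on the log2 scale and 6 fell by as much. Those 6 were Cst7, Cxcl2, Prss34, Cnn3, Cd69 and Slc45a3. The groups did not overlap in 6748 genes (62.9%): both preleukemia libraries lay above both mock libraries for 3995 genes (37.2%) and below them for 2753 (25.6%). After quantile normalization 1189 genes rose and 1069 fell, so that 52.7% of the called genes were higher in place of 68.9%. The count of called genes was 3876 with mock library 1 left out, 725 and 500 with preleukemia libraries 1 and 2 left out, and 1391 and 1392 without leukemia libraries 1 and 2. Here and below, a count given without either library of a group holds for each of them left out in turn. The 666 that fell were 1380 without mock library 1, and the 700 changes of at least 1 were 422 without preleukemia library 2.

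**Figure D1:**
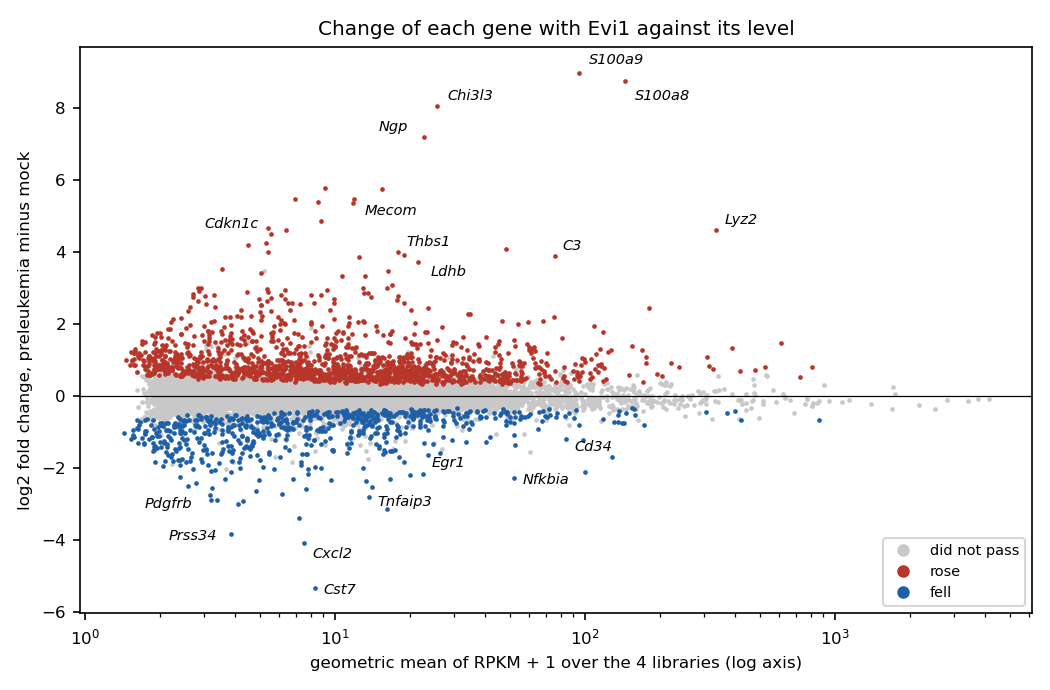
Each point is 1 of the 10734 genes: the x axis is the geometric mean of RPKM + 1 over the 4 libraries (log axis), and the y axis is the log2 fold change of preleukemia against mock on the log2(RPKM + 1) scale. Red points rose and blue points fell at a limma adjusted p under 0.05, and grey points did not pass; the cloud reaches 8.97 upward at S100a9 and -5.31 downward at Cst7.

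Genes of neutrophil granules were among the largest increases, and the size differed between the lists of primary and secondary granules. S100a8 and S100a9, which together form calprotectin, lie next to each other on chromosome 3 (90668978 to 90670035 and 90692632 to 90695721). S100a8 was at 6.25 and 5.68 RPKM in mock and at 2179 and 4117 RPKM in preleukemia, a rise of 8.75 (SE 0.33, limma adjusted p = 8.99e-05). S100a9 was at 1.95 and 5.02 RPKM in mock and at 1474 and 3049 RPKM in preleukemia (8.97, SE 0.45, limma adjusted p = 0.000197). Both genes went from a few RPKM to the range of the most abundant transcripts. Their joint share of the summed RPKM went from 0.00346% and 0.00461% in the mock libraries to 1.45% and 2.87% in the preleukemia libraries. Of 12 measured genes for secondary granule proteins 10 rose (83.3%), 2 did not pass and none fell. The median of this list was 4.54 against 0.05 over all genes. Some of its members, such as Ltf and Camp, reached 1 RPKM in the preleukemia libraries alone. For those the filter set the order of the groups. Ngp, a cathelicidin-related granule protein, was at 0.304 and 1.75 RPKM in mock and at 116.6 and 642.7 in preleukemia (7.18, SE 1.09). Lcn2, a lipocalin that binds bacterial siderophores, was at 0.884 and 1.35 RPKM in mock and at 61.0 and 204.1 in preleukemia. Ltf, lactoferrin, was at 0.135 and 0.560 RPKM in mock and at 17.4 and 166.3 in preleukemia. In these 3 genes preleukemia library 2 was the higher of the pair, and each stayed above both mock libraries in either preleukemia library. Camp, the cathelicidin itself, was at 3.44 RPKM in preleukemia library 1 and at 67.3 in library 2, against 0.616 and 0.494 in mock, and did not pass. Mmp8, the neutrophil collagenase, was the other that did not pass, at 0.717 and 1.39 RPKM in mock and at 0.0482 and 2.96 in preleukemia. Without preleukemia library 2, Ngp did not pass (limma adjusted p = 0.0504). Whether more cells held these transcripts or each cell held more of them cannot be told apart in RNA from sorted populations, here and in every comparison that follows.

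The promoters of S100a9, Ngp and Lcn2 are shown because they belong to the genes with the largest rises and hold the letters TTGCNNAA, a core bound by C/EBP factors. The sequences are from RefSeq (GRCm38.p6), 250 bases up to the annotated start, 5′ to 3′ on the strand of the gene, with the matches on either strand in capitals. S100a9 is at chr3:90695722-90695971 (minus strand), Ngp at chr9:110419558-110419807 (plus strand) and Lcn2 at chr2:32387740-32387989 (minus strand).
S100a9: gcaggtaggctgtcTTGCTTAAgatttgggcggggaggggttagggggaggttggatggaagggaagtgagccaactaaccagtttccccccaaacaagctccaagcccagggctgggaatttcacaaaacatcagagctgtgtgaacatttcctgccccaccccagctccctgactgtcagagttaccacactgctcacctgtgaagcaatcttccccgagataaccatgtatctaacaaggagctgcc
Ngp: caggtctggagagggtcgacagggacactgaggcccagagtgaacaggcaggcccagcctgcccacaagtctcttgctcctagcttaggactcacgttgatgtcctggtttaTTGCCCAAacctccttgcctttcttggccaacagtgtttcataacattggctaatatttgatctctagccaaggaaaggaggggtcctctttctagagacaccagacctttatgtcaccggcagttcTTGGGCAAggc
Lcn2: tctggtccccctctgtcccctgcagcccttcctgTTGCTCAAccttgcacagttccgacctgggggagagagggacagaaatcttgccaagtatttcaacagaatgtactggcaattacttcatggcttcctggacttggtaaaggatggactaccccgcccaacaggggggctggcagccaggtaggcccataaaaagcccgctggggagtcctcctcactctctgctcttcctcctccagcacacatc
Matches were searched in windows of 300 bases, 250 before and 50 after each start, and 3547 of all 32851 windows (10.8%) held at least 1. Windows were found for 11 of the 12 secondary granule genes, and 5 of these 11 windows (45.5%) held a match. Among members that rose it was 4 of 9 windows (44.4%). A link between the matches and the rise was not tested. A match describes the letters and not a bound site.

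Primary granule genes were already abundant in mock and changed less. Of 11 measured 7 rose, 1 fell and 3 did not pass (list median 0.80). Prtn3, proteinase 3, was at 393.2 and 338.2 RPKM in mock and at 987.5 and 1041 in preleukemia (1.47, limma adjusted p = 0.000881). Prss57, a serine protease of the same granules, was at 17.9 and 12.2 RPKM in mock and at 72.0 and 78.3 in preleukemia (2.27, limma adjusted p = 0.000784). Lyz2, lysozyme, which later granules also hold, was at 58.0 and 77.0 RPKM in mock and at 1356 and 2024 in preleukemia (4.61, limma adjusted p = 0.000177). Mpo, myeloperoxidase, the most abundant of the list, was at 1863 and 1325 RPKM in mock and at 1857 and 1874 in preleukemia, and did not pass. The member that fell was Cst7, cystatin F, an inhibitor of lysosomal cysteine proteases, from 60.9 and 43.5 RPKM to 0.360 and 0.281 RPKM (-5.31, SE 0.19, limma adjusted p = 8.99e-05). Its gene on chromosome 2 (150570415 to 150578944) showed the largest fall of all genes. Without preleukemia library 1, and likewise without library 2, the count of primary granule genes that rose was 3, and it was 6 without mock library 2.

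Among 10 measured tertiary granule and late neutrophil genes 6 rose, 1 fell and 3 did not pass (list median 2.45). Mmp9, 1 of these genes, reached 1 RPKM in the preleukemia libraries alone, so the filter set its order. Padi4, the deiminase that citrullinates histones, rose from 4.14 and 5.48 RPKM to 44.6 and 52.2 RPKM (3.09, limma adjusted p = 0.000173). Pglyrp1, a peptidoglycan recognition protein, rose from 15.1 and 7.48 RPKM to 158.5 and 249.0 RPKM (4.10, limma adjusted p = 0.00137). Mmp9, gelatinase B, was at 0.0261 and 0.0699 RPKM in mock and at 2.74 and 15.5 in preleukemia, and passed (limma adjusted p = 0.0243) but not without mock library 2 (0.0705) or preleukemia library 2 (0.0570). Trem1, which amplifies inflammatory signals in neutrophils, was the member that fell, from 5.61 and 11.7 RPKM to 0.0986 and 0.416 RPKM (-2.87, limma adjusted p = 0.00255). Ly6g, the Gr-1 antigen of mature neutrophils, did not pass, at 1.51 and 0.736 RPKM in mock and at 0.352 and 8.53 in preleukemia. The number that fell was 2 without mock library 1 and without preleukemia library 2. Padi4 was thus close together in the preleukemia libraries, whereas Ly6g, Camp and Mmp9 were higher in library 2 than in library 1.

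**Figure D2:**
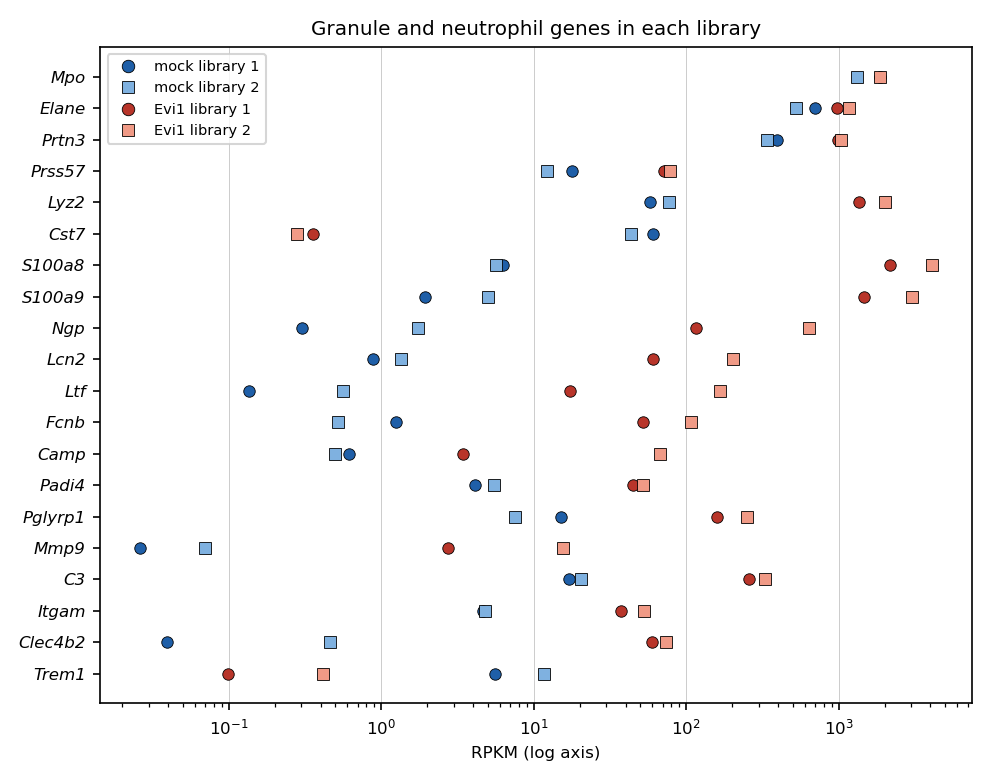
The x axis gives RPKM (log axis) of 20 granule and neutrophil genes, 1 point for each library: blue for mock, red for Evi1 (preleukemia), circles for library 1 and squares for library 2. Mpo lies between 1325 and 1874 RPKM in all 4 libraries. S100a8 moves from 6.25 and 5.68 RPKM in mock to 2179 and 4117 in preleukemia. Cst7 and Trem1 are the 2 genes that move to the left.

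Other genes of phagocytes rose as well. Of 6 subunits of the phagocyte NADPH oxidase, which makes superoxide, 4 rose and 2 did not pass, and the list's median was 1.18. Ncf1, the organizer subunit p47phox, was at 26.0 and 30.4 RPKM in mock and at 101.2 and 141.0 in preleukemia (2.05, limma adjusted p = 0.00185), and Cyba, the membrane subunit p22phox, rose by 1.64 (limma adjusted p = 0.00285). Of 11 complement genes 5 rose and 6 did not pass, and the list's median was 0.29. C3, the central component of the complement cascade, was at 17.0 and 20.4 RPKM in mock and at 258.5 and 326.3 in preleukemia (3.89, SE 0.15, limma adjusted p = 9.44e-05). Cfb, factor B, which joins C3 in the alternative pathway, was at 0.262 and 0.210 RPKM in mock and at 1.88 and 2.86 in preleukemia (limma adjusted p = 0.00837). Without preleukemia library 2 the counts that rose were 2 for the oxidase and 2 for complement, and Cfb did not pass (0.0698); 1 complement gene fell without mock library 2 and after quantile normalization.

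Of 12 C-type lectins measured, 7 rose, 2 fell and 3 did not pass (list median 1.12), so that this family split. Clec4b2 was at 0.0394 and 0.464 RPKM in mock and at 59.4 and 73.4 in preleukemia (5.76, limma adjusted p = 0.000173). Clec4a2, an inhibitory lectin receptor, was at 0.663 and 0.433 RPKM in mock and at 12.3 and 19.6 in preleukemia (3.42, limma adjusted p = 0.00123). Clec12a, another inhibitory receptor of myeloid cells, was at 24.98 and 26.86 RPKM in mock and at 104.6 and 110.5 in preleukemia (2.01, limma adjusted p = 0.000225). The 2 members that fell, Clec4e and Clec4d, encode the activating receptors Mincle and MCL of mycobacterial glycolipids. Clec4e was at 4.43 and 11.2 RPKM in mock and at 1.56 and 1.60 in preleukemia, and Clec4d at 3.22 and 14.6 RPKM against 0.663 and 0.623. Neither Clec4e (limma adjusted p = 0.0955 and 0.113) nor Clec4d (0.126 and 0.155) passed without preleukemia library 1 or 2, and without mock library 1 the number that fell was 4.

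Of 11 Fc receptors and adaptors 3 rose and Ms4a2, the beta chain of the IgE receptor, fell (-1.41, limma adjusted p = 0.0157; 0.0518 and 0.117 without preleukemia libraries 1 and 2), and 1 rose without preleukemia library 2. The number that fell was 3 without either leukemia library and 2 without mock library 1. Among those that rose were Fgr, a Src-family kinase of phagocytes, and Tyrobp, the adaptor DAP12. Fgr was at 0.0958 and 0.141 RPKM in mock and at 3.29 and 7.92 in preleukemia (2.47, limma adjusted p = 0.00428), while Tyrobp did not pass without preleukemia library 2 (0.0626). Fcer1g and Fcgr3 encode the common gamma chain and an activating IgG receptor. Fcer1g was at 37.1 and 51.5 RPKM in mock and 20.2 and 24.5 in preleukemia, and Fcgr3 at 23.6 and 18.0 against 7.59 and 7.96, and neither passed. Among 8 chemoattractant receptors 4 rose and Ccr2 fell. Cxcr2, the receptor for neutrophil chemokines, rose from 1.11 and 0.830 RPKM to 8.94 and 7.07 RPKM (2.19, limma adjusted p = 0.000609). Ccr2, which monocytes use to leave the marrow, fell from 11.8 and 12.0 RPKM to 3.33 and 3.22 RPKM (-1.59, limma adjusted p = 0.000609). The receptor count that rose was 1 without either preleukemia library, and the count that fell was 2 without mock library 1. Of 10 enzymes of arachidonic acid metabolism 3 rose, led by Ptgs1, cyclooxygenase 1, from 3.70 and 2.71 RPKM to 17.9 and 24.8 RPKM (2.40, limma adjusted p = 0.00290), and 1 rose without preleukemia library 2.

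More lysosomal genes rose than fell, by small amounts. Of 25 cystatins, cathepsins and lysosomal enzymes 16 rose, Cst7 fell and 8 did not pass (list median 0.54). After quantile normalization 12 rose, with a median of 0.41, and fewer than 16 rose without either leukemia library. Neu1, the lysosomal sialidase, rose from 8.79 and 7.44 RPKM to 26.0 and 32.7 RPKM (1.73, limma adjusted p = 0.00163). Ctsb, cathepsin B, rose from 31.1 RPKM in both mock libraries to 62.7 and 66.9 RPKM (1.03, limma adjusted p = 0.00123). The 16 were 6 and 3 with preleukemia libraries 1 and 2 left out, and the number that fell was 4 without mock library 1, 2 without mock library 2 and 3 after quantile normalization.

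Transcription factors of myeloid development moved in both directions. Of 30 measured 7 rose, 6 fell and 17 did not pass (list median 0.08). Tfec, a factor of the Mitf family, rose from 20.3 and 17.7 RPKM to 49.5 and 50.7 RPKM (1.36, limma adjusted p = 0.000788). Cebpe, which drives secondary granule genes, was at 8.632 and 3.797 RPKM in mock and at 36.1 and 57.9 in preleukemia (2.78, SE 0.53, limma adjusted p = 0.0150). Gfi1, a repressor needed for neutrophil development, was at 14.9 and 8.98 RPKM in mock and at 36.0 and 50.1 in preleukemia (1.79, limma adjusted p = 0.00762). Cebpe lost its call without mock library 2 (0.0545), preleukemia library 1 (0.0545) or preleukemia library 2 (0.111), and Gfi1 without preleukemia library 2 (0.0663). Cebpa, which acts earlier, did not pass, at 58.4 and 39.6 RPKM in mock and at 68.3 and 72.8 in preleukemia. Among those that fell was Runx2, a Runt factor, from 14.6 and 21.3 RPKM to 6.23 and 5.67 RPKM (-1.43, limma adjusted p = 0.00360). Irf8, the factor of monocyte and dendritic fate, was at 7.34 and 9.74 RPKM in mock and at 5.73 and 3.96 in preleukemia and did not pass. The number that rose was 1 without preleukemia library 2, and the number that fell was 13 without mock library 1, and 3 and 2 with preleukemia libraries 1 and 2 left out.

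Of 24 stem cell heptad factors and partners 7 rose, Runx1 fell and 16 did not pass. The list's median was 0.07, or -0.03 after quantile normalization. Lyl1, a basic helix-loop-helix factor, rose from 15.9 and 13.3 RPKM to 34.8 and 38.7 RPKM (1.28, limma adjusted p = 0.00144). Nfe2, which serves erythroid and megakaryocytic cells, rose from 33.5 and 22.3 RPKM to 64.0 and 67.4 RPKM (1.23, limma adjusted p = 0.00620). Mycn, a Myc family factor, rose from 1.74 and 0.872 RPKM to 6.28 and 4.67 RPKM (limma adjusted p = 0.00697). Gata2, an established target of Evi1, did not pass, at 66.7 and 44.4 RPKM in mock and at 51.7 and 41.4 in preleukemia. Without preleukemia library 1 the list had 2 members that rose, without preleukemia library 2 it had 3, and without either leukemia library 4; Runx1 passed in neither of the first 2 fits, nor without mock library 2 (0.126), where 2 others fell and the median was -0.02, nor without leukemia library 1 (0.0501). Nfe2 lost its call without preleukemia library 2 (0.0589) and Mycn without preleukemia library 1 (0.0530).

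Of 9 Hox, Meis and Pbx genes 3 rose and 2 fell, and the members of the Hoxa and Hoxb clusters named here differed in direction. Hoxa9, a factor of progenitor self-renewal, was at 7.44 and 5.82 RPKM in mock and at 2.09 and 3.12 in preleukemia (-1.09, limma adjusted p = 0.0114), and Hoxa7 at 8.01 and 5.37 against 2.88 and 2.78 (-0.98, limma adjusted p = 0.0153). Hoxb4, which expands stem cells when overexpressed, was at 2.88 and 2.37 RPKM in mock and at 5.85 and 6.48 in preleukemia (0.99, limma adjusted p = 0.00846), and Hoxb3 rose by 0.65 (limma adjusted p = 0.0301). The list had 2 members that rose and none that fell without preleukemia library 1, and 1 of each without library 2. Of these 4 genes Hoxa7 (0.0802, 0.106) and Hoxb3 (0.125, 0.163) lost the call without either preleukemia library, Hoxa9 without library 1 (0.0704) and Hoxb4 without library 2 (0.0812).

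Most interferon-stimulated genes rose, by moderate amounts. Of 50 measured 32 rose (64%, against 13.7% over all genes tested), 18 did not pass and none fell, and the median was 0.68. In 40 both preleukemia libraries lay above both mock libraries, an order found in 37.2% of all genes tested. Oas2, an oligoadenylate synthetase that activates RNase L on viral RNA, was at 1.35 and 0.990 RPKM in mock and at 12.0 and 14.5 in preleukemia (2.71, SE 0.15, limma adjusted p = 0.000298). Isg15, a ubiquitin-like modifier, was at 2.63 and 2.62 RPKM in mock and at 8.68 and 7.88 in preleukemia (1.35, SE 0.15, limma adjusted p = 0.00246). Samhd1, which degrades deoxynucleotides, was at 10.3 and 10.1 RPKM in mock and at 23.02 and 23.59 in preleukemia (1.12, limma adjusted p = 0.00103). Dhx58, the RNA sensor LGP2, rose by 1.48 (limma adjusted p = 0.00356), and Stat2 and Irf9, which join in the factor that interferon activates, by 0.69 (0.00999) and 0.44 (0.0363). The receptor subunits Ifnar1, at 12.9 and 11.7 RPKM in mock and 13.8 and 13.6 in preleukemia, and Ifnar2 did not pass. Irf1, which interferon gamma and NF-kB both induce, was at 16.5 and 42.8 RPKM in mock and at 16.4 and 16.6 in preleukemia and did not pass. The count that rose was 14 without preleukemia library 1 and 14 without library 2; Stat2 (0.0551, 0.102) and Irf9 (0.161, 0.203) were among those lost in both. Without mock library 1, 2 of the list fell, and 1 did after quantile normalization. The Oas1 genes share sequence with near-identical copies, so the levels of Oas1a and Oas1g are uncertain.

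**Figure D3:**
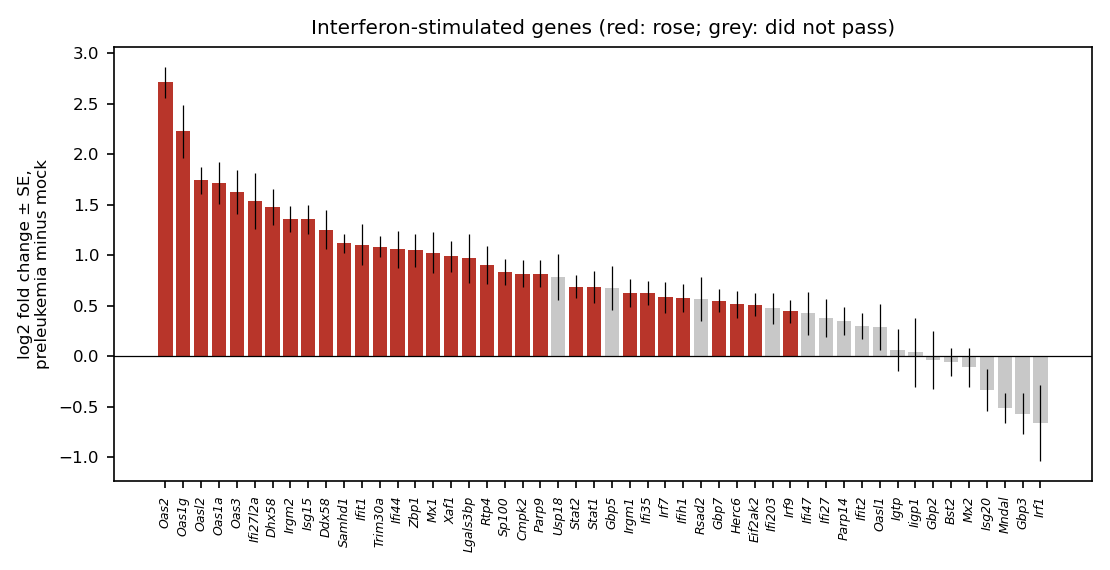
Bars give the log2 fold change of preleukemia against mock for 50 interferon-stimulated genes, ordered by size, on the log2(RPKM + 1) scale; error bars are the SE of the limma fit over 2 libraries a group. The 32 red bars rose, from Oas2 at 2.71 to Irf9 at 0.44, and the 18 grey bars did not pass, down to Irf1.

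The promoters of Isg15 and Oas1a are shown because both genes rose and hold 2 copies of GAAA separated by any 2 bases, the core of the interferon-stimulated response element, in overlapping copies close to the start. The sequences are RefSeq's (GRCm38.p6), 250 bases up to the start on the strand of the gene, with the matches in capitals. Isg15 is at chr4:156200819-156201068 and Oas1a at chr5:120907526-120907775, both on the minus strand.
Isg15: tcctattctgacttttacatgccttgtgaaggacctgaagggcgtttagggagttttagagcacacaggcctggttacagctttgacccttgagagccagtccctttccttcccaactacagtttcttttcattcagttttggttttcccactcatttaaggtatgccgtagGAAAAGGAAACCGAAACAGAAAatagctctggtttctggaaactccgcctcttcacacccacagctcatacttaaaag
Oas1a: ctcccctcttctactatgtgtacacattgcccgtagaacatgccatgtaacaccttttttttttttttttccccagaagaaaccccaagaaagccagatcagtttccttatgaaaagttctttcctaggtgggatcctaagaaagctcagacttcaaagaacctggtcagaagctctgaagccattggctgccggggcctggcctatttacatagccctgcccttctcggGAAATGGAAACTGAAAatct
The capitals of Isg15 join 3 overlapping matches, the first beginning 78 bases before the start, and those of Oas1a join 2, the first 20 bases before the start. At least 1 match on either strand was present in 1131 of all 32851 windows of 300 bases (3.44%). Windows were found for 37 of the 50 interferon-stimulated genes, under the 80% set as the minimum, so a share over the list is void.

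Surface proteins that interferon can induce changed unevenly. Ifitm3, a membrane protein that blocks viral entry, was at 56.0 and 52.6 RPKM in mock and at 212.9 and 214.7 in preleukemia (1.96, limma adjusted p = 0.000173). Ifitm6 was at 1.45 and 3.38 RPKM in mock and at 35.2 and 62.0 in preleukemia (3.86, limma adjusted p = 0.00236), whereas Ifitm1 fell from 36.5 and 33.1 RPKM to 13.18 and 13.98 RPKM (-1.29, limma adjusted p = 0.00465). These neighbours share sequence, which makes the split between them uncertain. Ly6a, the stem cell antigen Sca-1, was at 3.11 and 6.04 RPKM in mock and at 34.0 and 36.2 in preleukemia (2.75, SE 0.24, limma adjusted p = 0.00119). In its family 2 of 8 Ly6 genes rose (25%, against 13.7% over all genes).

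Part of the genes of MHC class II presentation fell. Of 11 measured 4 fell and 7 did not pass, and the median was -0.95. H2-DMa, a subunit of the peptide-loading chaperone, fell from 26.4 and 28.8 RPKM to 9.87 and 8.22 RPKM (-1.51, limma adjusted p = 0.00106), and H2-Ob, which restrains it, from 7.10 and 8.14 RPKM to 1.84 and 1.74 RPKM (-1.63, limma adjusted p = 0.00137). For the invariant chain Cd74 the mock libraries stood far apart, at 7.55 and 35.3 RPKM, around preleukemia values of 3.98 and 11.6, and it did not pass. With mock library 1 left out 9 fell, and with preleukemia library 1 left out 2 did; the list's median without mock library 2 was -0.23.

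Inhibitors of NF-kB, the inducible factor of inflammatory gene expression, were among the genes that fell in Evi1 cells, and several other genes of the pathway differed between the mock libraries. Nfkbia, the inhibitor IkB-alpha, was at 86.6 and 149.1 RPKM in mock and at 21.5 and 24.3 in preleukemia (-2.27, limma adjusted p = 0.00206). Tnfaip3, the deubiquitinase A20 that ends the signal, was at 35.9 and 34.3 RPKM in mock and at 4.92 and 3.50 in preleukemia (-2.80, SE 0.27, limma adjusted p = 0.00163). Ikbke, a kinase of the pathway, rose from 5.499 and 5.394 RPKM to 16.5 and 21.2 RPKM (1.61, limma adjusted p = 0.00163). Relb, a subunit of the alternative pathway, was at 0.857 RPKM in mock library 1 and 14.9 in mock library 2, and at 1.31 and 1.08 in preleukemia. Nfkb2, its partner, was at 8.31 and 42.3 RPKM in mock and at 6.50 and 7.33 in preleukemia, so that mock library 1 resembled the preleukemia libraries and mock library 2 stood alone. In total 4 of 24 subunits and inhibitors fell, 1 rose and 19 did not pass (list median -0.57). Without mock library 1 the number that fell was 14 and the median -0.89, and without mock library 2 it was 5, with 3 that rose and a median of 0.09, the opposite sign. Without preleukemia library 1 or 2 it was 2. Nfkbia and Tnfaip3 passed with each of the 4 libraries left out in turn.

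Of 20 inflammatory chemokines and cytokines 7 fell, 4 rose and 9 did not pass (list median -0.26). Cxcl2, a neutrophil chemoattractant, was at 15.9 and 56.1 RPKM in mock and at 0.168 and 1.89 in preleukemia (-4.08, SE 0.62, limma adjusted p = 0.00713), the second largest fall. Tnf, the cytokine, was at 6.86 and 6.82 RPKM in mock and at 0.252 and 0.423 in preleukemia (-2.55, limma adjusted p = 0.000982). Il12a, a subunit of interleukins 12 and 35, fell from 10.4 and 10.9 RPKM to 4.31 and 4.12 RPKM (-1.16, limma adjusted p = 0.00137), while Ebi3, its partner in interleukin 35, rose from 4.39 and 4.74 RPKM to 13.79 and 14.97 RPKM (1.47, limma adjusted p = 0.000888). Without preleukemia library 1 or 2 the number that rose was 2, and all 4 genes named here passed.

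The promoters of Nfkbia, Tnfaip3 and Cxcl2 are shown because these known NF-kB targets fell and each holds a match to the consensus NF-kB site, searched on both strands. They are RefSeq's (GRCm38.p6), 250 bases up to the start on the strand of the gene, at chr12:55492648-55492897 (minus strand), chr10:19015411-19015660 (minus strand) and chr5:90903649-90903898 (plus strand). Capitals mark matches on either strand.
Nfkbia: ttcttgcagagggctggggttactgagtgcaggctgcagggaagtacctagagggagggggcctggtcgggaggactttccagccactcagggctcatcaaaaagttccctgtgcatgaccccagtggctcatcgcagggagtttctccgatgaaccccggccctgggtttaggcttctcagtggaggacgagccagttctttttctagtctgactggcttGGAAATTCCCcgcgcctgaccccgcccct
Tnfaip3: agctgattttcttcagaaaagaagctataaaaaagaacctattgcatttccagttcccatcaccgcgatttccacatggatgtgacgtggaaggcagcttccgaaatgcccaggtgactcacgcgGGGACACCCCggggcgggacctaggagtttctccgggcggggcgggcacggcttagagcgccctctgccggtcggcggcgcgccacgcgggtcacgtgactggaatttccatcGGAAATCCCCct
Cxcl2: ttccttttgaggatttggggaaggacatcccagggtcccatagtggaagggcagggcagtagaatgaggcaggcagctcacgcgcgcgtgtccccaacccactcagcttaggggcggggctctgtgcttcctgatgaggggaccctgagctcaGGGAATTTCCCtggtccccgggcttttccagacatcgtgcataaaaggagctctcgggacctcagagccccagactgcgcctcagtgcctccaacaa
The match of Nfkbia begins 29 bases before the start, those of Tnfaip3 125 and 12 bases before it, and Cxcl2 holds 2 that overlap. Windows of 300 bases held at least 1 match in 2779 of 32851 cases (8.46%). For the 24 NF-kB subunits and inhibitors, 20 had a window, and 12 of their 26 windows (46.2%) held a match. This share covers all members with a window, most of which did not pass, and the list includes known NF-kB targets. It therefore does not bear on the fall, and a link was not tested.

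Immediate-early genes, which are transcribed soon after a stimulus, fell in part. Of 33 measured 11 fell, Batf rose and 21 did not pass (list median -0.75). Egr1 was at 45.5 and 47.8 RPKM in mock and at 8.54 and 11.1 in preleukemia (-2.15, SE 0.20, limma adjusted p = 0.00138). Jun was at 197.1 and 214.4 RPKM in mock and at 34.4 and 64.8 in preleukemia (-2.10, SE 0.27, limma adjusted p = 0.00421). Fos, the AP-1 partner of Jun, was at 261 and 296 RPKM in mock and at 351 and 483 in preleukemia, and did not pass. Nr4a1, an orphan nuclear receptor, was at 45.9 and 226.1 RPKM in mock and at 36.5 and 32.6 in preleukemia, and did not pass. Of 13 Dusp and Sprouty genes, which damp MAP kinase signals, 5 fell and none rose, with a median of -0.58. Dusp6, the ERK phosphatase, was at 26.0 and 24.3 RPKM in mock and at 8.71 and 8.06 in preleukemia (-1.48, limma adjusted p = 0.00164). The 11 immediate-early genes that fell were 22 without mock library 1, and 3 and 2 with preleukemia libraries 1 and 2 left out, and the list median was -0.36 without mock library 2. Batf lost its call without preleukemia library 1 (0.0629) or 2 (0.0934). The 5 Dusp and Sprouty genes were 3 and 2 without preleukemia libraries 1 and 2. Egr1, Jun and Dusp6 passed in each of these fits.

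**Figure D4:**
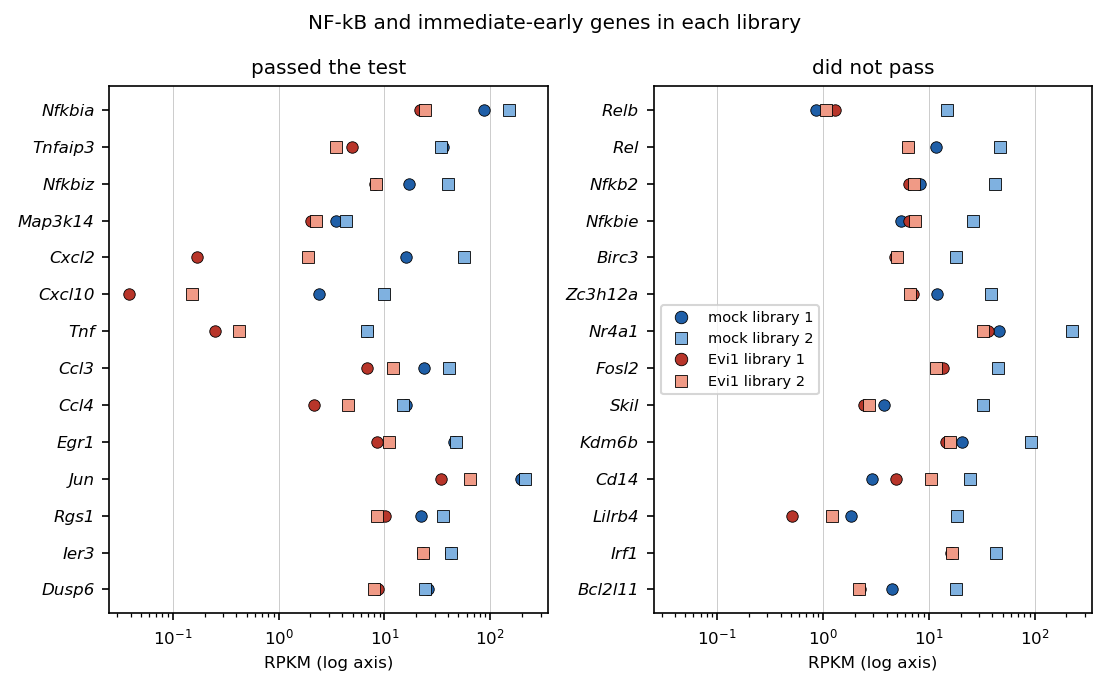
RPKM (x axis, log) of 28 selected genes in each library, among them NF-kB, chemokine and immediate-early genes. Genes on the left passed the test and genes on the right did not. Blue is mock, red is Evi1 (preleukemia), circles are library 1 and squares library 2. On the left both blue points lie above both red points. The genes on the right were picked after their values were seen and do not stand for all that did not pass. Fos, for example, is not shown. In those picked, mock library 2 lies apart, as for Relb at 14.9 RPKM against 0.857 to 1.31 in the other libraries.

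Of 26 genes of the TGF-beta pathway, which restrains the growth of progenitors and whose Smad3 Evi1 is known to bind, 9 fell, 1 rose and 16 did not pass (list median -0.42). Tgif2, a corepressor of Smads, fell from 6.57 and 10.4 RPKM to 1.81 and 1.63 RPKM (-1.77, limma adjusted p = 0.00485). Tgfb1, the ligand, fell from 95.22 and 90.03 RPKM to 65.7 and 58.0 RPKM (-0.58, limma adjusted p = 0.0121), and Smad6, an inhibitory Smad, rose from 0.462 and 0.973 RPKM to 2.60 and 1.90 RPKM (0.93, limma adjusted p = 0.0212). Smad3 did not pass, at 8.06 and 7.78 RPKM in mock and at 6.24 and 6.91 in preleukemia. The 9 were 3 and 4 without leukemia libraries 1 and 2, 2 without preleukemia library 1 and 1 without preleukemia library 2, where Tgfb1 (0.113) and Smad6 (0.0714) were lost, Smad6 also without preleukemia library 1 (0.126).

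Receptors for cytokines and growth factors changed in both directions. Of 29 measured 11 fell, 4 rose and 14 did not pass (list median -0.19). Csf3r, the receptor of granulocyte colony-stimulating factor, rose from 31.4 and 22.2 RPKM to 64.6 and 82.8 RPKM (1.44, limma adjusted p = 0.00421), and Csf2ra, the alpha chain for granulocyte-macrophage colony-stimulating factor, from 36.4 and 40.0 RPKM to 82.0 and 119.9 RPKM (1.36, limma adjusted p = 0.00691). Csf2rb, the beta chain that the receptors for interleukin 3, interleukin 5 and that factor share, fell from 23.8 and 30.9 RPKM to 9.87 and 7.85 RPKM (-1.52, limma adjusted p = 0.00408). Flt3, a growth factor receptor of early progenitors, fell from 14.7 and 18.6 RPKM to 3.65 and 3.13 RPKM (-2.00, limma adjusted p = 0.00723; 0.0641 without preleukemia library 2). The largest fall among receptors was that of Pdgfrb, a receptor better known from stromal cells, from 6.96 and 8.46 RPKM to 0.216 and 0.143 RPKM (-2.88, limma adjusted p = 0.000284). The 11 were 4 without preleukemia library 1 and 2 without library 2, and the 4 that rose were 2 in either case.

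Of 23 adhesion molecules 5 rose (21.7%) and 3 fell (13%), against 13.7% and 6.2% over all genes tested. The list's median was 0.02, or -0.04 after quantile normalization. Itgal, the alpha chain of the leukocyte integrin LFA-1, fell from 31.8 and 33.6 RPKM to 5.38 and 4.38 RPKM (-2.52, SE 0.12, limma adjusted p = 0.000173). Itgam, the alpha chain of the related integrin Mac-1, rose by 2.99 (SE 0.24, limma adjusted p = 0.000932), so that the alpha chains of these integrins moved in opposite directions. Their common beta chain Itgb2 was at 12.3 RPKM in both mock libraries and at 5.13 and 15.6 in preleukemia, and did not pass. Thbs1, thrombospondin, was at 1.23 and 7.91 RPKM in mock and at 108.4 and 45.7 in preleukemia (4.00, limma adjusted p = 0.00871; 0.0571 without preleukemia library 1). Itga6, an integrin chain known as an Evi1 target, rose from 10.03 and 9.272 RPKM to 18.5 and 19.1 RPKM (0.90, limma adjusted p = 0.00314). The number that rose was 3 without preleukemia library 1, and the number that fell was 6 without mock library 1 and 1 without preleukemia library 2.

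Of 25 stem and progenitor genes 8 rose and 5 fell, with a median of 0.07 that was -0.05 after quantile normalization. Cdkn1c, the cell cycle inhibitor p57 of quiescent stem cells, was at 0.0719 and 0.256 RPKM in mock and at 20.1 and 32.0 in preleukemia (4.51, SE 0.28, limma adjusted p = 0.000387). Prom1, which encodes CD133, rose from 1.47 and 0.471 RPKM to 11.7 and 16.8 RPKM (2.98, limma adjusted p = 0.00168). Cd34, the sialomucin of progenitors, fell from 141.7 and 112.1 RPKM to 63.5 and 47.2 RPKM (-1.19, SE 0.20, limma adjusted p = 0.00926; 0.0706 without preleukemia library 2). Hlf, Procr and Slamf1, markers of stem cells, did not pass, and Hlf was at 2.49 and 2.57 RPKM in mock and at 2.19 and 1.36 in preleukemia. With preleukemia library 1 or 2 left out 5 rose and 3 fell. Thy1, the Thy-1 antigen of T cells and stem cells, rose from 0.907 and 1.43 RPKM to 11.5 and 13.2 RPKM (2.63, limma adjusted p = 0.000387). Of 5 measured T and NK cell genes 2 rose, 1 fell and 2 did not pass. Besides Thy1, Lck rose and Lat fell (limma adjusted p = 0.0292 and 0.0222), while Cd3e, Cd4, Cd8a and Cd5 were below the level for testing. Lck and Lat lost the call without mock library 2 and without preleukemia library 2, and Lck also without preleukemia library 1. Thy1 kept its call with each library left out.

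Markers of other lineages were measured because a sorted population can hold several cell types. Of 22 megakaryocyte and platelet genes 10 rose, 3 fell and 9 did not pass (list median 0.65). Pf4, platelet factor 4, was at 9.24 and 11.6 RPKM in mock and at 43.7 and 30.9 in preleukemia (1.73, limma adjusted p = 0.00596), and Ppbp, the other platelet chemokine, was at 0.2999 and 0 RPKM in mock and at 7.06 and 5.18 in preleukemia (limma adjusted p = 0.000888). Itga2b, the integrin chain CD41, was at 17.3 and 16.6 RPKM in mock and at 9.39 and 7.97 in preleukemia and did not pass. The summed level of the list was 279.4 and 351.5 RPKM in mock and 638.3 and 525.8 in preleukemia, and the 10 were 5 and 6 without preleukemia libraries 1 and 2, and the 3 were 1 without the latter. Globins were the erythroid genes that rose. Hbb-bt, an adult beta globin, was at 2.43 and 5.98 RPKM in mock and at 64.1 and 44.6 in preleukemia (3.48, limma adjusted p = 0.00145), with the reservation that globin copies are near-identical. Of 24 erythroid genes 3 rose, all globins, and Aqp1 fell. Klf1, the master factor of red cells, was at 20.2 and 5.29 RPKM in mock and at 9.05 and 6.39 in preleukemia. The summed erythroid level was 602.9 and 289.0 RPKM in mock and 401.6 and 299.5 in preleukemia, and 15 of the genes fell without mock library 2. Without mock library 1, 6 rose and 2 fell, and 4 fell after quantile normalization. Hba-a1, an alpha globin, lost its call without mock library 2 (0.0990) or preleukemia library 1 (0.157) or 2 (0.110), and Aqp1, a water channel, without preleukemia library 1 (0.0629) or 2 (0.145).

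Most B-lymphoid genes fell: 9 of 16 passed in that direction (56.2%), 3 in the other, and the list median was -0.81. Dntt, the polymerase of lymphoid precursors, fell from 19.98 and 11.98 RPKM to 2.416 and 2.997 RPKM (-2.16, limma adjusted p = 0.00245), and Cd79a, of the B cell receptor, from 3.52 and 5.23 RPKM to 0.203 and 1.11 RPKM (-1.74, limma adjusted p = 0.0101). The 9 were 5 without preleukemia library 2, and none of the 3 that rose passed without preleukemia library 1 or 2. Cd24a, which many other cells express, had the highest level of the list and rose, and the summed level was 266.1 and 212.6 RPKM in mock and 253.1 and 252.7 in preleukemia. Of 16 mast cell and basophil genes 6 fell and 2 rose, with a median of -0.26, and 1 rose without mock library 2 or either preleukemia library. Prss34, a basophil protease, was at 11.15 and 16.03 RPKM in mock and at 0.0486 and 0 in preleukemia (limma adjusted p = 0.000197). It was 1 of 3 genes at or above 2 RPKM in both mock libraries and under 0.2 in both preleukemia libraries. The others were Cxcl10 and Slc2a6, whose calls were lost without either preleukemia library. The reverse, under 0.2 RPKM in both mock and at least 2 in both preleukemia libraries, held for 18 genes. Cpa3, the mast cell carboxypeptidase, fell from 41.2 and 20.4 RPKM to 5.62 and 4.26 RPKM (-2.35, limma adjusted p = 0.00421), while Srgn and Gata2, the most abundant of the list, did not pass. Epx, eosinophil peroxidase, rose from 4.16 and 2.33 RPKM to 42.8 and 38.8 RPKM (3.33, limma adjusted p = 0.0369), and lost its call without any 1 of the 4 libraries. Of 4 genes on the eosinophil list 2 rose, Epx and Cebpe, and Cebpe is also the factor of secondary granule genes named above. Cebpe lost its call without mock library 2 or either preleukemia library. Prg2, another granule protein of eosinophils at a high level, did not pass. Of 20 monocyte and macrophage genes 6 rose (30%) and 3 fell (15%), against 13.7% and 6.2% over all genes. Their median was -0.13 (0.48 without mock library 2). The 6 were 2 without either preleukemia library, and the 3 were 7 without mock library 1, 1 without preleukemia library 2 and 5 after quantile normalization. Ms4a4c rose from 2.03 and 2.77 RPKM to 36.7 and 29.5 RPKM (3.33, limma adjusted p = 0.000173), and Csf1r, the receptor of macrophage colony-stimulating factor, fell from 26.4 and 38.3 RPKM to 16.9 and 15.2 RPKM (-0.94, limma adjusted p = 0.0217; 0.0863 and 0.146 without preleukemia libraries 1 and 2). The part of these cell types in the other results was not tested.

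Of 27 genes of glycolysis and lactate metabolism 8 rose (29.6%) and 3 fell (11.1%), with a median of 0.10. The number that rose was 5 and 3 and the number that fell 0 and 1 without preleukemia libraries 1 and 2, and 5 fell without mock library 2. Ldhb, the heart-type lactate dehydrogenase subunit, was at 4.597 and 5.232 RPKM in mock and at 78.3 and 76.2 in preleukemia (3.73, limma adjusted p = 4.32e-05), whereas Ldha, the muscle-type subunit, did not pass at 133 and 111 RPKM in mock and 107 and 102 in preleukemia. Of 15 enzymes of the pentose phosphate pathway 8 rose (53.3%) and none fell, with a median of 0.43; 1 fell without mock library 2 and after quantile normalization. The 8 were 4 without either leukemia library, 3 without preleukemia library 1 and 1 without preleukemia library 2. Gsr, glutathione reductase, which uses the NADPH of that pathway, was at 77.3 and 74.3 RPKM in mock and at 383.2 and 463.7 in preleukemia (2.46, limma adjusted p = 0.00245). In all, 8 of 35 redox enzymes rose (22.9%) and 2 fell (5.71%), against 13.7% and 6.2% over all genes. Sod1, the cytosolic superoxide dismutase, fell from 184 RPKM in both mock libraries to 124.4 and 96.8 RPKM (-0.74, limma adjusted p = 0.0113). Without preleukemia library 2 the call of Sod1 was lost. The redox count that rose was 13 without mock library 1 and 5 without either preleukemia library, and the count that fell was 1 and 0 without preleukemia libraries 1 and 2. Bcl2, the survival factor, fell from 22.1 and 22.6 RPKM to 9.47 and 9.76 RPKM (-1.14, limma adjusted p = 0.00138), and Mcl1, its relative in neutrophil precursors, did not pass.

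Of 53 replication and mitosis genes none rose and 2 fell, Mcm3 and Mcm4, with a median of 0.04 that was -0.05 after quantile normalization. Mki67, the proliferation antigen, was at 66.5 and 50.8 RPKM in mock and at 60.3 and 64.0 in preleukemia. Mock library 1 was above mock library 2 in this list, with summed levels of 1744 and 1338 RPKM against 1491 and 1483 in preleukemia, and without mock library 1 the list had 19 members that rose and 1 that fell. The number that fell was 5 without mock library 2, 6 after quantile normalization, 1 without either leukemia library and 0 without either preleukemia library. Of 52 nuclear genes of the respiratory chain none passed, of 56 ribosomal protein genes Rpl13 fell, and of 31 proteasome genes Psmb5 rose. The calls of Rpl13 and Psmb5 were lost without mock library 2 and without either preleukemia library. After quantile normalization 8 ribosomal protein genes and 2 respiratory chain genes fell. In 29 of the 56 ribosomal protein genes both preleukemia libraries lay below both mock libraries, and in 2 above them. Over all genes tested these orders were found in 25.6% and 37.2%. Without mock library 1, 1 ribosomal protein gene rose and 2 fell, and 2 proteasome genes rose and 1 fell. In the same fit 4 respiratory chain genes rose, and without mock library 2, 3 fell. The 13 mitochondrially encoded genes made up 9.63% and 9.96% of the summed RPKM in mock and 8.62% and 6.99% in preleukemia, and 2 of them fell (3 without preleukemia library 1 and 0 without any other single library, 6 after quantile normalization).

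**Figure D5:**
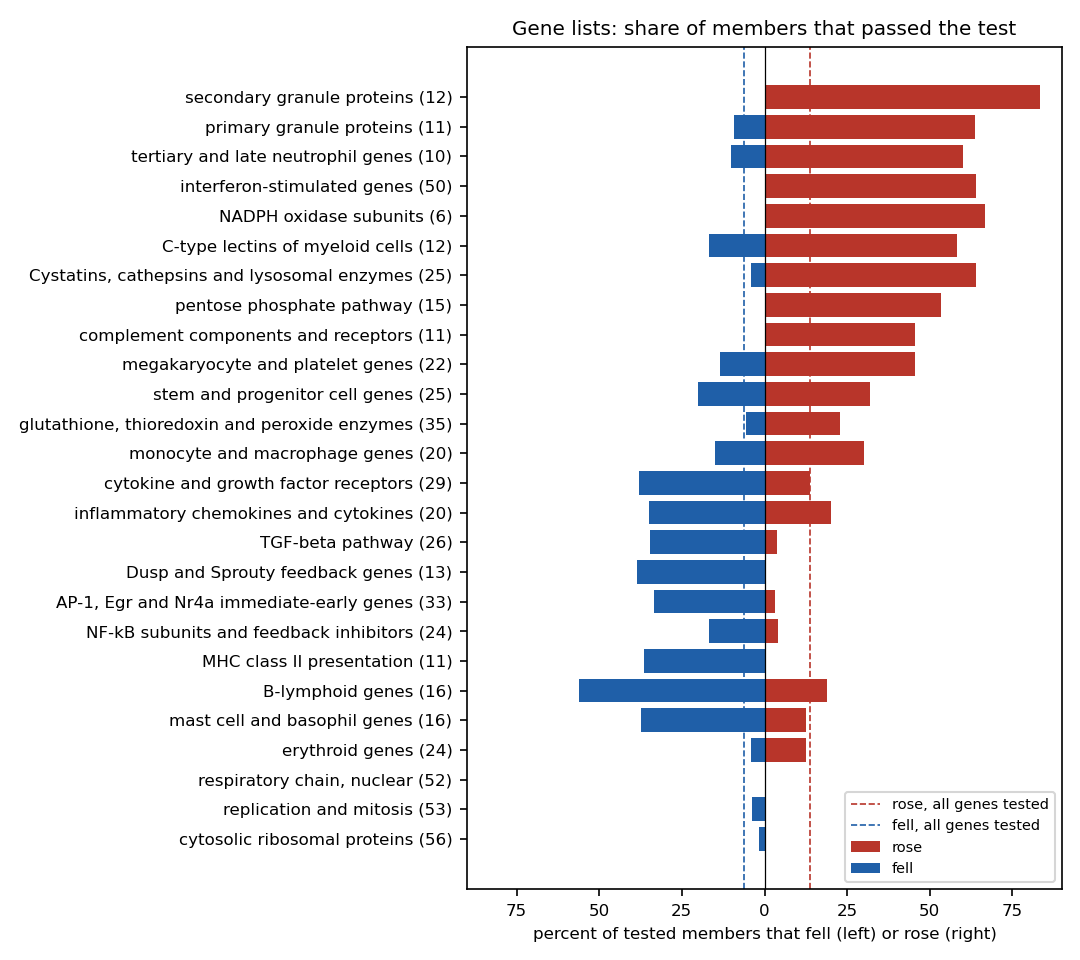
Bars give the percent of tested members (number in brackets) of 26 gene lists that rose (right, red) or fell (left, blue) at a limma adjusted p under 0.05; dashed lines mark the same shares over all 10734 genes, 13.7% and 6.2%. Granule, interferon, oxidase and lysosomal lists extend to the right, NF-kB, immediate-early, TGF-beta, receptor, MHC class II and B-lymphoid lists to the left, and respiratory chain, replication and ribosomal lists stay short of both lines.

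Evi1's own DNA letters were looked for in the same promoter windows. GACAAGATA, bound by the first group of zinc fingers, was present on either strand in 39 of 32851 windows (0.119%), and GAAGATGAG, bound by the second group, in 131 (0.399%). Windows were found for 8338 of the tested gene names, under the 80% set as the minimum, so a comparison of called with other genes is void.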

How the data were processed

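RNA was sequenced from GFP+ Lin- c-kit+ marrow cells sorted by flow cytometry, with total RNA taken by Nucleospin and libraries made with a NEBNext Ultra kit, per the labels' protocols. This kit keeps no strand information, so reads of overlapping antisense genes are mixed. The authors deposited 1 value per gene and library in RPKM. This unit was inferred from the values: times the exon length of GENCODE M21, 64.7% to 66.6% of values under 20 reads lay within 0.02 of a whole number (4% by chance). CASAVA 1.8.2 and GRCm38 are named without a role, per the submitters' processing notes. For the aligner, counting tool and annotation the sources used here give nothing.

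Values were analysed as log2(RPKM + 1) with limma 3.58.1 in R 4.3.3: group means over all 6 libraries, the contrast preleukemia minus mock, an empirical Bayes spread with a trend (3 residual and 3.72 prior degrees of freedom), two-sided, Benjamini-Hochberg over 10734 genes at 0.05. The script was tested on simulated data. Of the members 10553 matched GENCODE M21, and 15 carried names turned into dates. Members and 62 gene lists were chosen with earlier results of these data known, so lists are described by counts and medians without a test.

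Genes were named by rule: Mecom, the 15 largest rises and falls with no overlap, up to 4 members of a list with the smallest p, those with the highest RPKM, the 10 highest genes of a group and the 10 that differed most between its libraries. Other genes were chosen after their values were seen, and not every gene the rule named is reported. Alternatives were 2 pseudocounts (0.1 and 0.5), 2 filters, 2 scalings, 3 estimates of the spread, the replicate block and each library left out. Leaving out a mock or preleukemia library leaves a lone library, which is assumed to vary like the others.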

Additional observations from a re-analysis of the deposited data

How the results depend on the processing

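No gene called in the comparison changed sign under any of the 16 alternatives. The count of changed genes (2141; 1475 higher, 666 lower) was 1387 (974 and 413) in a fit of the 4 libraries alone and 1410 (978 and 432) with array weights, and 1069 genes were lower after quantile normalization. With each library left out in turn it ranged from 500 to 3876, from 364 to 2496 higher and from 136 to 1380 lower. The 700 changes of 1 or more in log2 (462 higher and 238 lower) ranged from 422 to 963, from 301 to 573 higher and from 121 to 390 lower. The low end came without preleukemia library 2 and the high end without mock library 1. The cause was not tested. With a replicate block the count was 2115, of which 1948 were shared with the 2141. The labels do not say what the library numbers mark, so the libraries were not taken as pairs. Deviations of same-numbered mock and preleukemia libraries correlated at 0.12, of mock and leukemia at 0.01 and of preleukemia and leukemia at 0.18. Of 337 genes named by the rule 212 passed, and 109 of these kept the call in every setting; 58 lost it without a filter, and 94 did without preleukemia library 2. With 2 libraries a group, small changes and genes near 3 reads are not resolved.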

Other observations

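Genes that changed by at least 1 on the log2 scale included runs of neighbours with the same direction, at most 200 kb apart. Only some of these runs are named, and the genes between their members that did not change are not given. On chromosome 5, from 120730333 to 120907521, Oas2, Oas3, Oas1c, Oas1g and Oas1a rose by 1.08 to 2.71. On chromosome 7, from 104218793 to 104465193, the antiviral genes Trim6, Trim34a, Trim12c, Trim30c and Trim30a rose by 1.09 to 1.43. On chromosome 17, from 34591266 to 34935953, Pbx2, Fkbpl, C4b, Cfb and Neu1 rose, of which C4b and Cfb are complement genes. Less than 1 Mb away on that chromosome, from 33974659 to 34269419, the MHC genes H2-K2, H2-DMa, H2-Ob and H2-Ab1 fell by 1.39 to 1.84. The call of H2-Ab1 was lost without mock library 2 and without preleukemia library 1. Several of these neighbours are close copies of each other, so reads may be divided between them.

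The share of tested genes that rose was 19.4% on chromosome 19 (75 of 387) and 6.2% on chromosome 18 (16 of 258), against 13.7% over all genes, and chromosome 18 was the chromosome on which more genes fell (26, 10.1%) than rose. By level, 16.8% of the 2684 genes with the highest mean RPKM rose, against 12% to 13.2% in 3 groups of lower level and about equal size.

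Among genes with large differences between preleukemia libraries 1 and 2 were Camp (3.44 and 67.3 RPKM), Ltf (17.4 and 166.3), the heat shock gene Hspa1b (2.61 and 22.1) and the ADP-dependent glucokinase Adpgk (19.4 and 54.9). Of the 44 genes that were higher by at least 1 in preleukemia library 2, 17 rose and 2 fell against mock. Over all genes 13.7% rose and 6.2% fell. The 44 were picked by preleukemia values that also enter this comparison, so an excess of rises among them is built in. Among genes with large differences between mock libraries 1 and 2 were Skil (3.79 and 32.8 RPKM), Lilrb4 (1.83 and 18.4) and Cd14 (2.88 and 24.6). Of the 249 genes that differed by at least 1 between them, 169 were higher in mock library 2.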
